A study of Rattus norvegicus with 50 samples.

Results

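The clotting factors and complement components made by the liver were followed in rats after a brain injury. The set was a list of 41 gene symbols, 20 of coagulation and 21 of complement. Of these, 38 had a probe of their own among the 14506 genes measured, 19 in each system, and each of the 38 had a single such probe. Levels of F9 and C5 are not analysed here, and C2 was represented only by a probe shared with Cfb, which was not used. Members were chosen by symbol.

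Liver RNA came from 50 male Sprague Dawley rats of about 3 months, in 10 groups of 5 with 1 Affymetrix Rat Gene 1.0 ST array per animal. In 9 groups the rats had a controlled cortical impact, a contusion of the exposed brain. These rats were given erythropoietin (EPO, 2500 IU/kg), anakinra (100 mg/kg), which blocks the interleukin-1 receptor, or saline vehicle, and punches of the median liver lobe were taken after 24 h, 72 h or 7 days. The remaining group held 5 intact sham rats, for which the labels give no time and no vehicle, so injury, surgery, injection and handling cannot be told apart in a comparison with sham. All rats were of 1 sex and 1 strain, and the sources used here do not give the dosing schedule. The series' title names hepatic metabolising enzymes and transporters as the study's subject.

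Coagulation is a cascade of zymogens that activate one another until thrombin turns fibrinogen into fibrin. Several of them carry a vitamin K-dependent modification, and serpins, protein C, protein S and TFPI hold the cascade back. Complement is started by C1q with C1r and C1s (classical pathway), by mannose-binding lectins with MASPs (lectin pathway) or on surfaces with the help of factor D and properdin (alternative pathway), and ends in the membrane attack complex of C5b, C6, C7, C8 and C9. Hepatocytes make most of these plasma proteins, while C1q and properdin come largely from myeloid cells, which in liver are above all Kupffer cells. Many of the hepatocyte products are acute phase proteins that respond to interleukin-6 through STAT3 and C/EBP factors.

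All values below are log2 RMA values, a log2 scale of probe brightness on which a difference of 1 is a doubling. Levels are not compared between genes, since each probe has its own brightness. A gene passed a comparison at a limma p under 0.05 after Benjamini-Hochberg adjustment over all 14506 genes. Array medians lay between 6.66 and 6.89, and correlations between arrays over all genes between 0.960 and 0.996. Within an array the values of all probes had an SD of 1.99 to 2.16. The 5 arrays with the smallest SD, at most 2.04, are called narrow below: the 24 h vehicle array 3, the 72 h vehicle arrays 2 and 5, and array 3 of both the vehicle and the EPO group of day 7. The 10 hepatocyte markers had means between 11.95 and 13.98, and their mean level lay between 13.19 and 13.39 in every array. In this bulk tissue, fewer cells of a type and less RNA per cell cannot be told apart.

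Over the 10 groups, 8 of the 38 members differed by limma's F test, against 5.67% of all genes. They were the coagulation genes F5 and Proz and the complement genes C1s, Cfp, C8a, Masp1, C9 and C1qb. Adjusted p was 0.00415 for C1s, 0.00485 for Cfp, 0.00892 for C8a and 0.0173 for F5. It was 0.0241 for Masp1, 0.0353 for Proz, 0.0425 for C9 and 0.0466 for C1qb. The calls for C1s, Cfp, C8a and F5 held whichever array was left out. Masp1 had adjusted p = 0.0704 without sham array 2, and Proz 0.0838 without the day 7 EPO array 3. Without the 72 h EPO array 2, C9 had adjusted p = 0.0862 and C1qb 0.111, and these 2 calls held in 21 and 16 of the 50 such fits. The same 4 calls ended under some ways of processing the arrays. C1qb did not pass with array weights (adjusted p = 0.0681), with arrays scaled to a common spread (0.0564), with cyclic loess (0.0613) or without the narrow arrays (0.0559). Masp1 had adjusted p = 0.0522 with scaled arrays and 0.0511 with cyclic loess, C9 0.103 with scaled arrays and Proz 0.0691 without the narrow arrays. The group means of a complement member spanned a median of 0.37, those of a coagulation member 0.22 and those of any gene 0.27. Plg (plasminogen, 0.07), C8g (the gamma chain of C8, 0.07) and Serpinc1 (antithrombin, 0.09) spanned the least, and C7 (0.57), C1qb (0.55) and Tfpi (0.54) the most.

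**Figure D1:**
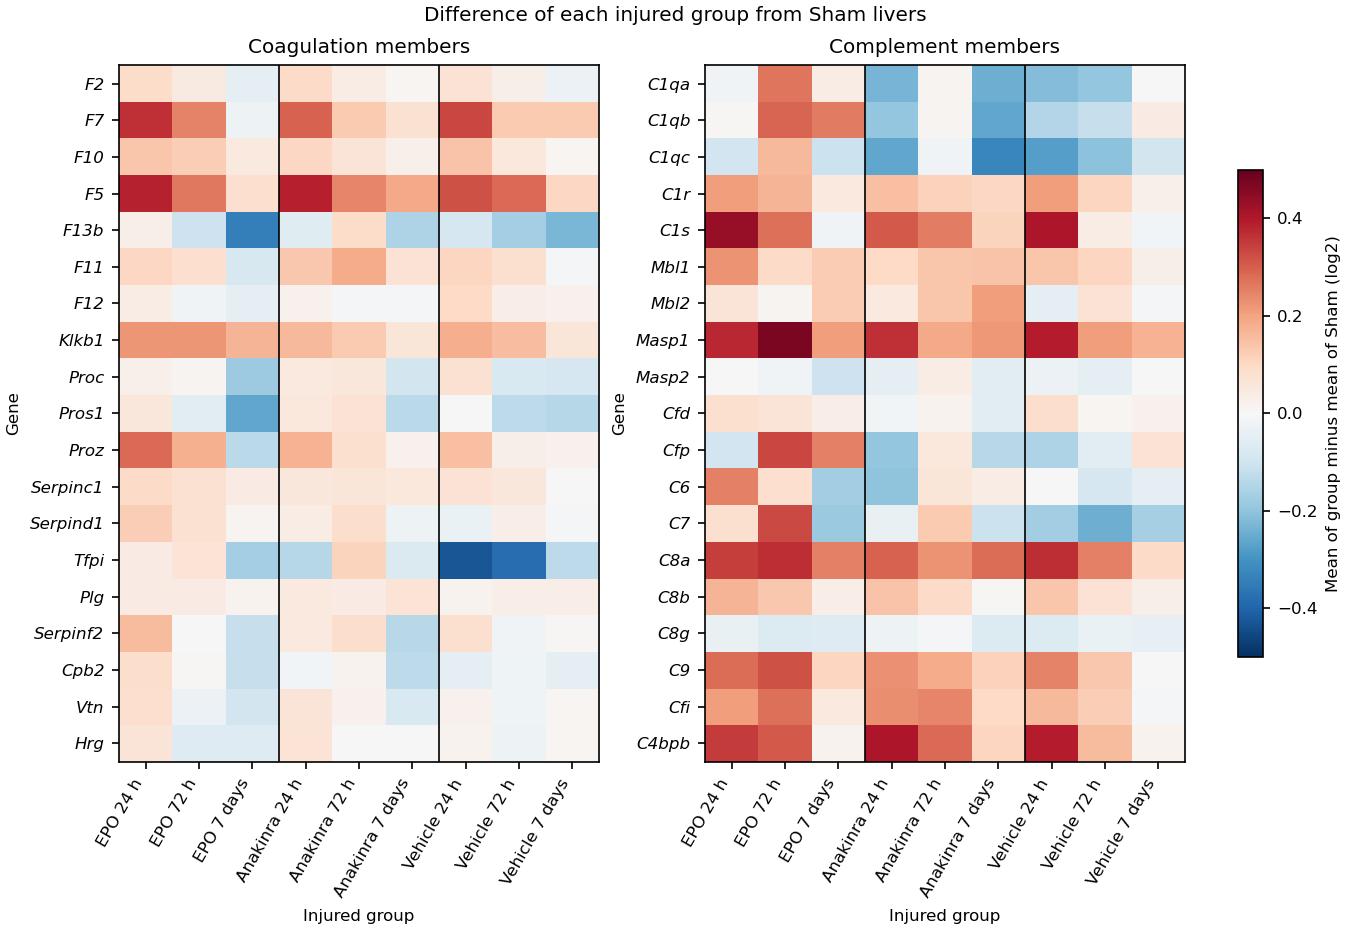
Mean of each injured group minus the mean of the sham group (log2, colour scale) for the 19 coagulation and 19 complement members measured, with injured groups across and genes down. C8a, Masp1, F5 and C4bpb were above sham in all 9 injured groups, and the C1q chains, Cfp and C7 were highest in the EPO group at 72 h.

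A mean above sham in all 9 injured groups was found for 11 of 38 members, against 12% of all genes. They were the coagulation genes F5, F10, Klkb1, Serpinc1 and Plg and the complement genes C1r, Mbl1, Masp1, C8a, C8b and C4bpb. C8g alone lay below sham in all 9, as did 11.9% of all genes. These counts rest on 1 sham group that all 9 groups share, and several of the differences are small, down to 0.003 for Serpinc1. With arrays scaled to a common spread 9 of the 11 were still above sham in all 9 groups, not Serpinc1 and Plg, and C8g was no longer below in all. Mbl1 was not above in all 9 without the narrow arrays, and cyclic loess gave 17 members above sham in all 9, the 11 among them.

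At 24 h after the brain injury, vehicle livers had more transcript of C8a and Masp1 than sham livers. No other member passed in this comparison. Both rose, which is 2 of 38 members against 0.372% of all genes called higher, and 0 members fell, against 0.455% of all genes. At an unadjusted p under 0.05 there were 12 members, against 15.9% of all genes. C8a encodes the alpha chain of C8, which inserts into the target membrane, and Masp1 the serine protease MASP-1 of the lectin pathway.

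C8a read 12.77, 12.75, 12.85, 12.88 and 12.68 in vehicle livers at 24 h, against 12.52, 12.27, 12.45, 12.48 and 12.36 in sham livers. Every vehicle array lay above every sham array. The difference was 0.37 (SE 0.079, 1.29-fold, adjusted p = 0.0098 by limma), and C8a passed whichever of the 10 arrays was left out, with an adjusted p of at most 0.0486. When the model held only these 2 groups the adjusted p was 0.0779.

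The promoter of C8a is shown because this gene passed in more comparisons than any other member. RefSeq promoters (assembly GRCr8), from 250 bases before the start of a gene to 50 after it, were at hand for 31 of the 41 members, F9 and C5 among them, and were searched on both strands for 6 short motifs. Capitals mark, in order, a STAT match 230 bases, a C/EBP match 136 bases and an HNF1 match 110 bases before the start (chr5:124866582-124866881, minus strand).
C8a: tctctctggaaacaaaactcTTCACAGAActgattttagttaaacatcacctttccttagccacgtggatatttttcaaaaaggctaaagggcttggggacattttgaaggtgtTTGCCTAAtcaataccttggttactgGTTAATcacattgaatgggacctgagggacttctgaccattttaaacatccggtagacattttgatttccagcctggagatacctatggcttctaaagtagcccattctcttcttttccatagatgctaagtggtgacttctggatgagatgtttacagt
The C/EBP motif, searched as TTGCNNAA, stood in 8 of the 31 member promoters, against 10.5% of 27457 promoters in all. STAT, searched as TTCNNNGAA, stood in 6 of 31, against 8.68%. HNF1, a hepatocyte factor whose motif was searched as GTTAAT, stood in 8 of 31, against 7.37%. HNF4, another hepatocyte factor, was searched as CAAAGT and stood in 4 of 31, against 14.6%. The motif of the myeloid factor PU.1, searched as GAGGAA, stood in 10 of 31, against 27.5%, and the TATA box, searched as TATAAA, in 1 of 31, against 14.3%. In the promoters printed here no match overlaps another. A match describes the letters of the window and does not show that a factor binds there.

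Masp1 read 11.55, 11.32, 11.48, 11.30 and 11.46 in vehicle livers at 24 h, against 11.24, 10.81, 11.01, 10.995 and 11.08 in sham livers. The groups did not overlap, which held for 5 members in the higher direction (F7, F10, Masp1, C8a and C9) and for 1.50% of all genes. The Masp1 difference was 0.39 (SE 0.099, 1.31-fold, adjusted p = 0.0404). That call was lost on leaving out any of sham arrays 2 to 5 or any of vehicle arrays 1, 3 and 5, where adjusted p reached 0.136, and also without the 5 narrow arrays (0.38, adjusted p = 0.0838), with array weights (0.32, adjusted p = 0.0548), with scaled arrays (0.38, adjusted p = 0.0595) and in a model of only these 2 groups (adjusted p = 0.105). No match to the 6 motifs stood in the 300 bases of its promoter (chr11:90839472-90839771, plus strand), shown for comparison with C8a.
Masp1: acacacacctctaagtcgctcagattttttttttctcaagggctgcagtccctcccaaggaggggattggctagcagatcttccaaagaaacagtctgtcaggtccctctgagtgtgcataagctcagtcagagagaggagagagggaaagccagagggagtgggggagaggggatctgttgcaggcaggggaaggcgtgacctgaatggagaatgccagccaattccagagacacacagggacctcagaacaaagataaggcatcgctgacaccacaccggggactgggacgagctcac

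None of C1qa, C1qb, C1qc, C1r and C1s, which encode the C1 complex of the classical pathway, passed in this comparison. C1s, the protease that cleaves C4 and C2, averaged 11.63 ± 0.16 in vehicle livers at 24 h and 11.23 ± 0.23 in sham livers (SD, n = 5 each), a difference of 0.41 with adjusted p = 0.0623. Vehicle array 3, a narrow array, stood apart at 11.36, while the other vehicle arrays lay between 11.66 and 11.74. Without the narrow arrays the C1s difference was 0.47 and passed (adjusted p = 0.016). C1r, the protease that activates C1s, differed by 0.21 (adjusted p = 0.136), and C4bpb, the beta chain of the C4b-binding protein that restrains the pathway, by 0.39 (adjusted p = 0.161). C9, the pore-forming last component, differed by 0.25 (adjusted p = 0.15) with all 5 vehicle arrays above sham.

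On the coagulation side no member passed at 24 h in vehicle livers, and 4 had an unadjusted p under 0.05. F5, the cofactor of factor Xa, read 10.999, 11.15, 11.04, 11.06 and 10.96 in vehicle livers, against 10.63, 10.53, 10.86, 11.06 and 10.53 in sham livers. Sham array 4 lay above all but 1 of the vehicle arrays, and the difference of 0.32 had adjusted p = 0.0797. F7, which starts the extrinsic pathway, averaged 10.22 ± 0.23 in vehicle livers and 9.89 ± 0.08 in sham livers (adjusted p = 0.159), and F10, the factor that F7 activates, averaged 12.48 ± 0.04 in vehicle livers and 12.34 ± 0.04 in sham livers (adjusted p = 0.143, SD, n = 5 each). Prothrombin (F2) differed by 0.07.

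Tfpi, the inhibitor of the F7 pathway, was the member with the lowest value against sham at 24 h. It read 7.05, 7.39, 6.19, 6.99 and 7.12 in vehicle livers, against 7.23, 7.22, 7.61, 7.29 and 7.52 in sham livers, a difference of -0.43 with adjusted p = 0.292. The lowest value was that of the narrow array 3, and without the narrow arrays the difference was -0.24 (adjusted p = 0.697). In the narrow vehicle arrays of the later times Tfpi was low as well, with 6.30 in array 2 at 72 h and 6.56 in array 3 at 7 days, the lowest of their groups.

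Genes of the same systems outside the member list gave calls too in vehicle livers at 24 h. Of all genes 0.372% were called higher in this comparison and 0.455% lower. Complement membrane regulators and receptors are not counted here. Among fibrinogen and kinin genes 1 of 6 measured passed, Kng1 (kininogen, 0.47, adjusted p = 0.00932). Among vessel-side genes 2 of 13 passed, Serpina10 (the protein Z-dependent inhibitor, 0.52) and Lrp1 (a clearance receptor, 0.58), and among fluid-phase complement genes 1 of 10, C4bpa (0.39, adjusted p = 0.0201). Of the 10 genes of interleukin-6 family signalling, Stat3 was higher by 0.68 (adjusted p = 0.00732). None of the 12 liver transcription factors, the 3 vitamin K cycle genes, the 10 hepatocyte markers or the 10 Kupffer cell markers measured passed in this comparison.

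The EPO and anakinra groups at 24 h were compared with the same 5 sham arrays, so these differences are not independent of the vehicle ones. EPO livers passed for C8a (0.35, SE 0.079, adjusted p = 0.0271) and F5 (0.38, SE 0.090, adjusted p = 0.0331), 2 of 38 members against 0.283% of all genes called higher. F5 read 11.004, 10.996, 11.09, 11.27 and 11.17 in EPO livers at 24 h, of which 3 lay above every sham array. The F5 call was lost without EPO array 3, 4 or 5 or sham array 1, 2 or 5 (adjusted p up to 0.185) and in a model of only these 2 groups (0.107), and the C8a call without EPO array 2, 3, 4 or 5 or sham array 2, 3 or 5 (adjusted p up to 0.136). C1s (0.44, adjusted p = 0.0561) and Masp1 (0.38, adjusted p = 0.0679) did not pass, although all 5 EPO arrays lay above sham for both. In the same comparison Kng1 (0.60) and Kng2 (0.45) of the 6 fibrinogen and kinin genes passed, and Serpina10 (0.47) of the 13 vessel-side genes. So did C4bpa (0.41) and Serping1 (the C1 inhibitor, 0.31) of the 10 fluid-phase complement genes. Stat3 (0.56) passed of the 10 genes of interleukin-6 family signalling, and the collagenase Mmp8 (0.99) of the 10 neutrophil markers. The mean level of these neutrophil markers was 5.89 to 6.03 in EPO livers at 24 h and 5.59 to 5.74 in sham livers.

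All 19 coagulation members had a mean above sham in EPO livers at 24 h, as did 15 of the 19 complement members and 6932 of the 14506 genes. With cyclic loess 2 of these complement members, C1qb (0.004) and Masp2 (0.002), were below sham. In this comparison 16 of the 38 members had an unadjusted p under 0.05, against 5.99% of all genes. The groups did not overlap for 12 members in the higher direction, against 1.66% of all genes. The 12 were the zymogens F10 and Klkb1 (prekallikrein), protein Z (Proz), the serpins Serpinc1, Serpind1 and Serpinf2, and the complement genes C1s, Mbl1, Masp1, C8a, C8b and C9. Proz differed by 0.28 and averaged 12.01 ± 0.09 in EPO livers and 11.73 ± 0.18 in sham livers (SD, n = 5 each), with adjusted p = 0.205. Without the narrow arrays, none of which is in this comparison, C1s passed as well (adjusted p = 0.0228).

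Anakinra livers at 24 h passed for 1 of 38 members, F5, against 0.124% of all genes called higher. F5 read 11.24, 11.01, 10.99, 11.26 and 11.06 in anakinra livers, a difference of 0.39 from sham (SE 0.090, adjusted p = 0.0447). That call was lost without anakinra array 1, 4 or 5 or sham array 1, 2, 3 or 5, with an adjusted p of up to 0.241, and in a model of only these 2 groups (0.142). There were 11 members at an unadjusted p under 0.05, against 6.28% of all genes. C8a differed by 0.29 (adjusted p = 0.115) with all 5 anakinra arrays above sham, Masp1 by 0.36 (adjusted p = 0.12) and C4bpb by 0.41 (adjusted p = 0.309). Kng1 (0.44) of the 6 fibrinogen and kinin genes passed in the same comparison. So did Socs3 (the feedback inhibitor of interleukin-6 signalling, 0.94) of the 10 genes of interleukin-6 family signalling. The nuclear receptor Nr5a2 (0.37) passed of the 12 liver transcription factors.

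**Figure D2:**
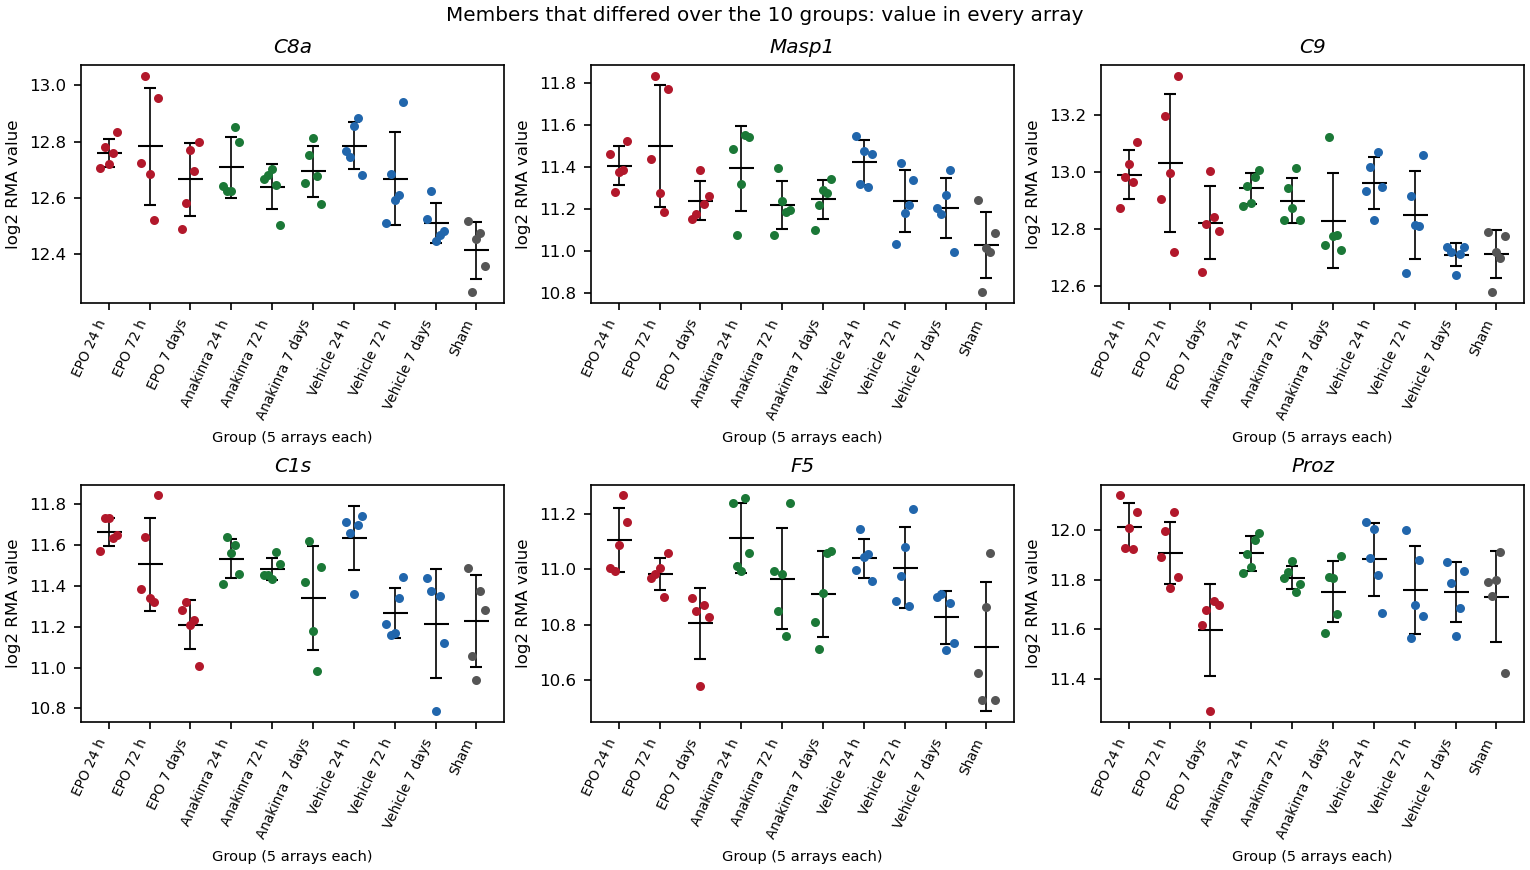
Log2 RMA value of every array for C8a, Masp1, C9, C1s, F5 and Proz, by group, with the mean and SD of 5 arrays in black. C8a was between 12.27 and 12.52 in sham livers and between 12.68 and 12.88 in vehicle livers at 24 h, and Proz had its lowest mean, 11.60, in EPO livers at 7 days.

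Fewer members passed between vehicle and sham livers at the later times. Without the narrow arrays, 5 of the 38 differences from sham changed sign at 72 h and 15 at 7 days. At 72 h 0 of 38 members passed, as did 0% of all genes by limma, and 3 had an unadjusted p under 0.05, against 12.1% of all genes (F5, 0.28, Masp1, 0.21, and C8a, 0.25). At 7 days 0 members passed in vehicle livers, again with 0% of all genes, and 0 had an unadjusted p under 0.05, against 6.52%. C8a averaged 12.79 ± 0.08 at 24 h, 12.67 ± 0.17 at 72 h and 12.51 ± 0.07 at 7 days in vehicle livers (SD, n = 5 each). An F test of the 3 vehicle times passed for 0 members (0.0689% of all genes), with 7 at an unadjusted p under 0.05 (5.35%), so a decline over time was not shown. Averaged over the 3 times, vehicle minus sham passed for 0 members (0.0551% of all genes), with 5 at an unadjusted p under 0.05 (15.7%) and C8a the smallest at adjusted p = 0.15.

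EPO livers at 72 h had higher values than sham for 3 complement members, Masp1, C8a and C9, against 2.74% of all genes called higher. Before adjustment 14 members had a p under 0.05, against 13.6% of all genes. Masp1 read 11.44, 11.83, 11.27, 11.18 and 11.77 in EPO livers at 72 h, and 4 of the 5 lay above every sham array. Its difference was 0.47 (SE 0.099, 1.38-fold, adjusted p = 0.00195). C8a read 12.72, 13.03, 12.69, 12.52 and 12.96 in the same livers, the lowest barely above the highest sham array, with a difference of 0.37 (SE 0.079, adjusted p = 0.00218). C9 read 12.90, 13.20, 12.997, 12.72 and 13.34 in EPO livers at 72 h, against 12.79, 12.58, 12.72, 12.70 and 12.78 in sham livers, a difference of 0.32 (SE 0.083, adjusted p = 0.018). EPO array 4 was within the sham range for C9, and the C9 call was lost without EPO array 2 or 5 or sham array 2 (adjusted p up to 0.121) and with scaled arrays (0.26, adjusted p = 0.0973). In a model of only these 2 groups adjusted p was 0.0764 for Masp1, 0.0757 for C8a and 0.153 for C9. Without the narrow arrays, all in other groups, Cfi (factor I, 0.28, adjusted p = 0.00917) and Cfp (0.33, adjusted p = 0.0305) passed too.

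EPO arrays 2 and 5 were the highest of this group for Masp1, C8a and C9 alike, as they were for C1s, C1r, C8b and C4bpb. The same group had higher values than sham for 10 of 10 erythroid markers, 6 of 10 neutrophil markers and 4 of 10 Kupffer cell markers, and for 0 of 10 hepatocyte markers. Osmr (1.21) and Lifr (0.54), receptors of the interleukin-6 family, and Socs3 (0.80) and Stat3 (0.53) also passed. The part of these in the result was not tested. Directly against vehicle livers at 72 h, none of the 3 genes passed (Masp1 0.26, adjusted p = 0.14, C9 0.18, adjusted p = 0.214, and C8a 0.12).

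Of the remaining comparisons with sham, anakinra at 7 days passed for 1 member, C8a (0.931% of all genes called higher). C8a read 12.65, 12.75, 12.81, 12.68 and 12.58 in anakinra livers at 7 days, all above the sham arrays, a difference of 0.28 (SE 0.079, adjusted p = 0.0491). It passed when anakinra array 5 was left out and did not pass when any other of the 10 arrays was, with an adjusted p of up to 0.172, or with scaled arrays (adjusted p = 0.0556). EPO at 7 days passed for 0 members (2.86% of all genes), with 4 at an unadjusted p under 0.05 (18.3%) and C8a at 0.25 (adjusted p = 0.0642). Anakinra at 72 h passed for 0 members (0.110% of all genes), with 6 at an unadjusted p under 0.05 (5.78%).

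EPO against vehicle at 72 h was the only comparison of a drug with vehicle in which a member passed. Cfp, which encodes properdin, the stabiliser of the alternative pathway convertase, was higher, 1 of 38 members against 2.18% of all genes called higher. The 3 C1q chains and C7 had differences as large or nearly so without passing. At an unadjusted p under 0.05 there were 8 complement members and 1 coagulation member, against 20.0% of all genes.

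Cfp read 10.22, 10.50, 10.20, 10.41 and 10.23 in EPO livers at 72 h, against 9.67, 9.81, 9.77, 10.09 and 10.29 in vehicle livers at 72 h. Vehicle array 5 lay within the EPO range, and only 2 EPO arrays were above every vehicle array. Leaving out EPO array 1 gave 3 members that passed in this comparison, leaving out vehicle array 4 gave 5, and leaving out vehicle array 5 gave 2. The difference was 0.39 (SE 0.110, 1.31-fold, adjusted p = 0.0412). The call was lost without EPO array 2, 4 or 5 or vehicle array 1, 2 or 3 (adjusted p up to 0.151), and Cfp differed by 0.47 (adjusted p = 0.0107) without the narrow arrays. It did not pass with cyclic loess (0.34, adjusted p = 0.138) or in a model of only these 2 groups (adjusted p = 0.315). In EPO livers at 7 days Cfp averaged 10.23 ± 0.20 and in vehicle livers 10.05 ± 0.24, which did not pass.

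C1qa, C1qb and C1qc encode the chains of C1q, the recognition molecule of the classical pathway. C1qa read 9.57, 9.59, 9.60, 9.76 and 9.74 in EPO livers at 72 h, against 9.16, 9.04, 9.17, 9.50 and 9.09 in vehicle livers at 72 h. All 5 EPO arrays were above all vehicle arrays, the only member of which this was true, against 1.11% of all genes, and the difference was 0.46 with adjusted p = 0.071. C1qb differed by 0.41 (adjusted p = 0.0999) and C1qc by 0.37 (adjusted p = 0.134). Without the narrow arrays the C1qa difference was 0.38 (adjusted p = 0.322).

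C7, a component of the membrane attack complex that binds C5b and C6, read 7.25, 7.63, 7.71, 8.0 and 7.54 in EPO livers at 72 h, against 6.87, 6.99, 7.16, 7.31 and 6.92 in vehicle livers at 72 h. All EPO arrays but the first lay above the vehicle arrays, and the difference of 0.57 (1.49-fold) was the largest of any member in this comparison, with adjusted p = 0.051. Without the narrow arrays it was 0.51 (adjusted p = 0.187). The remaining terminal genes C6, C8a, C8b, C8g and C9 did not pass either, and differed by at most 0.18.

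Promoters of Cfp, C1qb and C1qa are shown because Cfp passed in this comparison and C1qa and C1qb had the largest differences among the C1q chains. Capitals mark, in Cfp, PU.1 letters 76 and 60 bases before the start (chrX:3715301-3715600, plus strand), in C1qb PU.1 letters 247 and 90 bases before it (chr5:154407778-154408077, minus strand), and in C1qa a STAT match 90 bases before it (chr5:154419884-154420183, minus strand).
Cfp: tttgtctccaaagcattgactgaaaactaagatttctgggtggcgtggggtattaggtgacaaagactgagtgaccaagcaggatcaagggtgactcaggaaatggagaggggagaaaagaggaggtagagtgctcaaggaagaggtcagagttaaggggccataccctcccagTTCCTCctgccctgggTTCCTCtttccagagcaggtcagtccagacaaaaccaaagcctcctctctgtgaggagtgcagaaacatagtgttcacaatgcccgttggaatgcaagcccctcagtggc
C1qb: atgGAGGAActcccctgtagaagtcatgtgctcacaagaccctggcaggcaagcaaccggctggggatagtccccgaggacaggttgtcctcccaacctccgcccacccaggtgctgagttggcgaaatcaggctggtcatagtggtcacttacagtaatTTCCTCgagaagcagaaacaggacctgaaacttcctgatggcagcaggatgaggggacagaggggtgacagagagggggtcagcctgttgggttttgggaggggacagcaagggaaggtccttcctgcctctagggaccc
C1qa: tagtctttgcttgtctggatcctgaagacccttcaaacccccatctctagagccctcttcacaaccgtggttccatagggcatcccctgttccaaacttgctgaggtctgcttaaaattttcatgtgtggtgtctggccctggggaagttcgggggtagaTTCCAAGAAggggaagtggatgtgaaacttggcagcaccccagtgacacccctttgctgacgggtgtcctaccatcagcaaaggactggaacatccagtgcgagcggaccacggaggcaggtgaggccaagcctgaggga
The PU.1 letters stood on neither strand of the C1qa window. C1qc had no entry in the table.

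Markers of other cells moved in the same comparison. The 10 measured Kupffer cell markers had a mean level of 9.08 to 9.31 in EPO livers at 72 h and of 8.16 to 9.05 in vehicle livers at 72 h, so the groups did not overlap. Of these markers 9 passed, among them Cd163 (0.78), Mrc1 (0.61), Marco (0.64) and Cd68 (0.63), and the median difference was 0.62. The marker that did not pass, Siglec1 (0.18), is named after its value was seen. All 10 erythroid markers, 5 of 10 neutrophil markers, 3 of 8 endothelial markers and 3 of 9 lymphocyte and NK markers were higher as well, and so were 2 of 10 genes of interleukin-6 family signalling. Passing were 0 of 10 hepatocyte, 0 of 10 monocyte and dendritic, 0 of 9 stellate, 0 of 5 cholangiocyte and 0 of 7 adipose markers, 0 of 12 liver transcription factors and 0 of 3 vitamin K cycle genes. The part of these cells in the values of Cfp, the C1q chains and C7 was not tested. Calls of genes outside the member list were made in the main model only, which holds the narrow vehicle arrays 2 and 5. Of all genes, that model called 316 higher in this comparison. Without the narrow arrays 265 were called higher, and in a model of only these 2 groups 50.

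Receptors and membrane regulators of complement were higher in EPO livers at 72 h for 6 of 12 genes. The 4 with the smallest p were Cd55 (decay-accelerating factor, 0.69, adjusted p = 0.00117), Vsig4 (a Kupffer cell receptor for C3 fragments, 0.76, adjusted p = 0.00233), Itgb2 (the beta chain of complement receptors CR3 and CR4, 0.62) and C3ar1 (the C3a receptor, 0.57). Of the vessel-side genes 3 of 13 passed, Plau (urokinase, 0.50), Serpinb2 (0.77) and F13a1 (the A subunit of factor XIII, 0.78), while the member F13b, the B subunit, differed by 0.07, less than the SD of each group. Some of these probes read low. The mean over all arrays was 3.85 for Serpinb2, below the mean of 5 used to filter low values, 5.43 for Cd55 and 5.90 for F13a1. None of the 10 fluid-phase complement genes and none of the 6 fibrinogen and kinin genes passed.

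**Figure D3:**
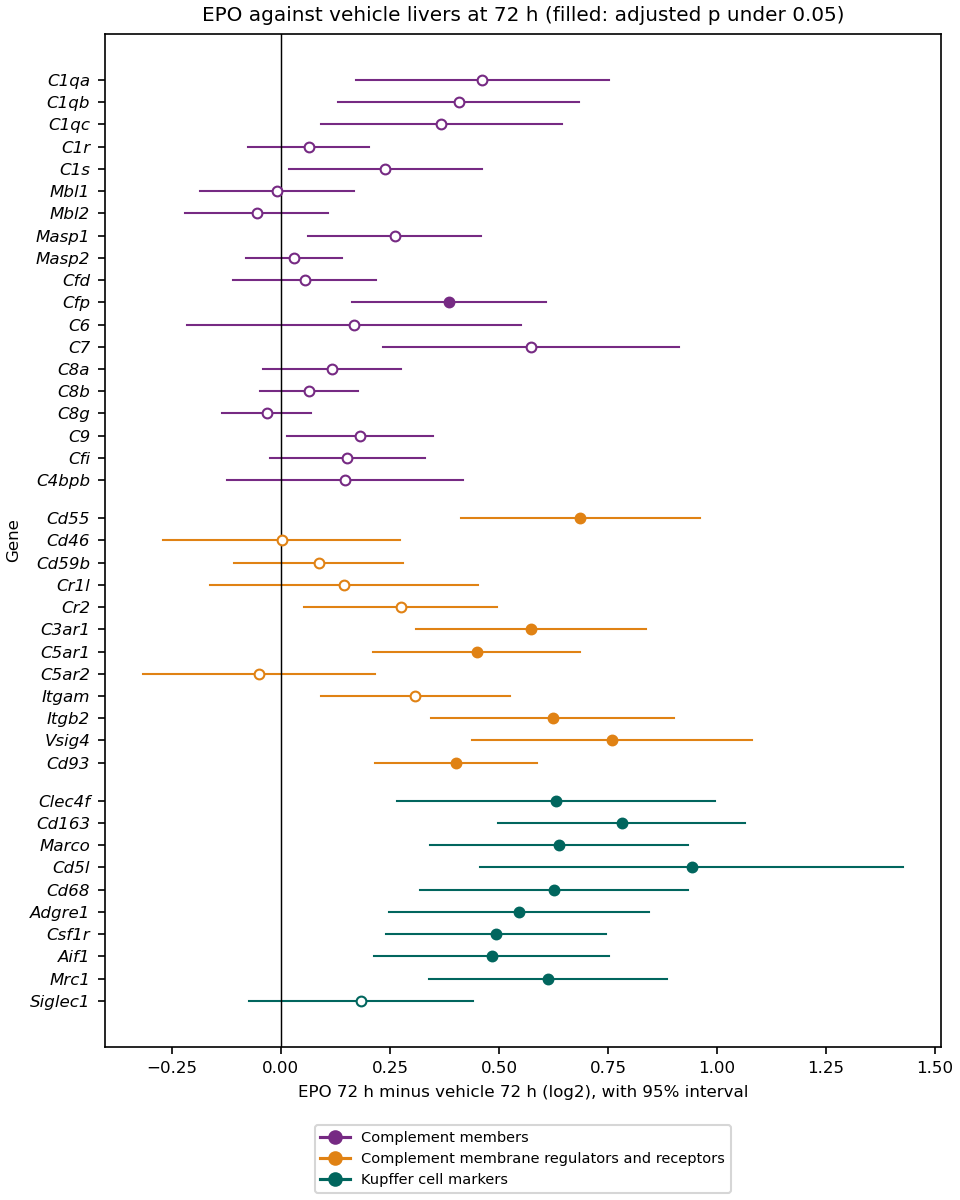
EPO minus vehicle at 72 h (log2, points) with 95% intervals (lines) for the 19 complement members, 12 complement membrane regulators and receptors and 10 Kupffer cell markers, and filled points where adjusted p was under 0.05. Of the members Cfp is filled, at 0.39, as are 6 of the 12 receptors and regulators and 9 of the 10 Kupffer markers.

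**Figure D4:**
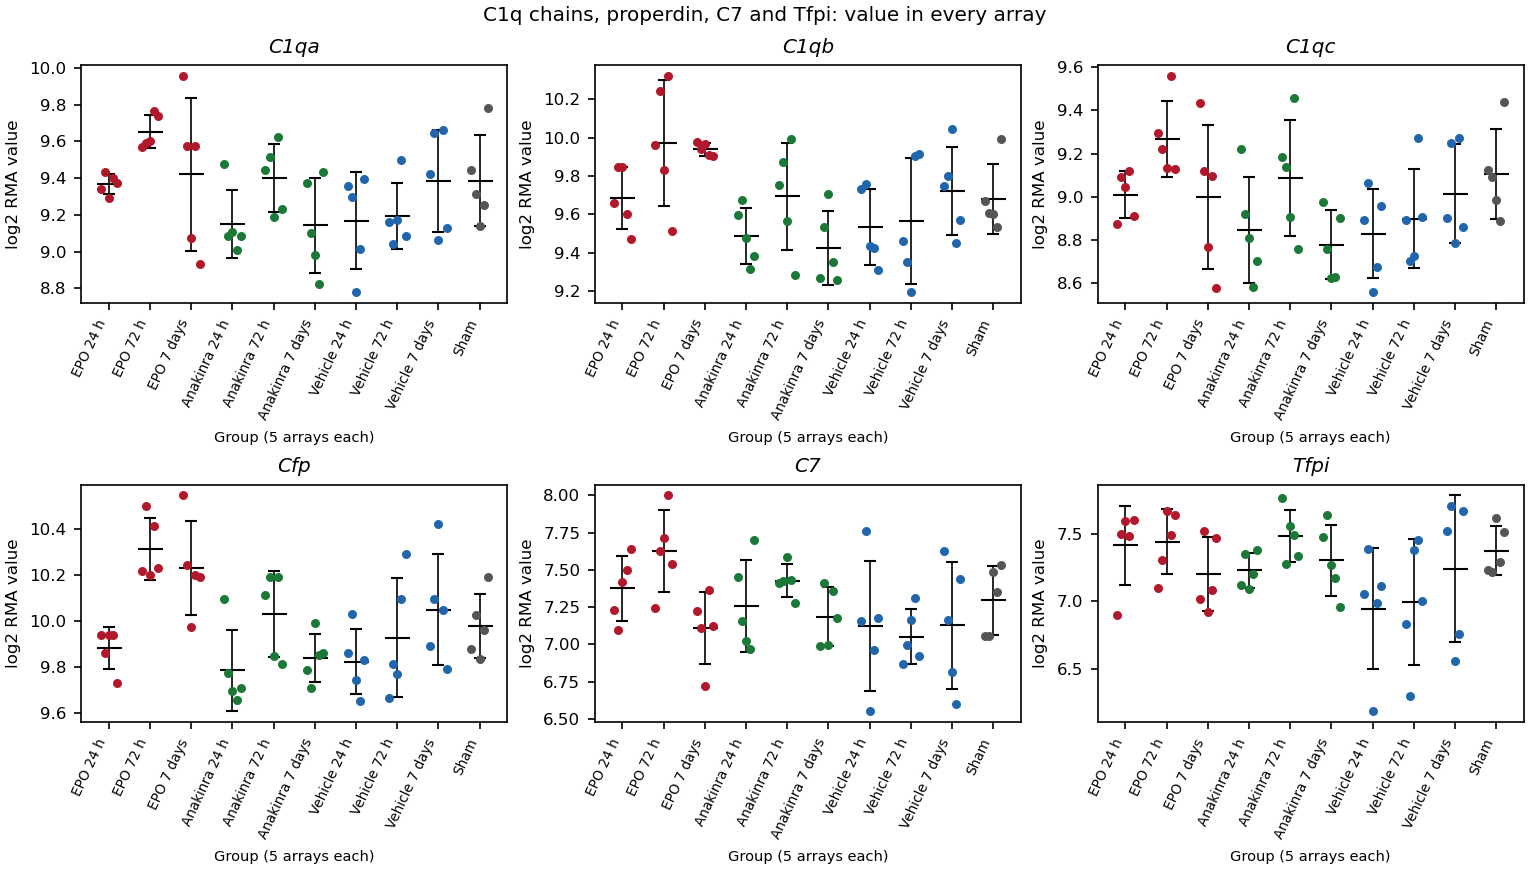
Log2 RMA value of every array for C1qa, C1qb, C1qc, Cfp, C7 and Tfpi, by group, with the mean and SD of 5 arrays in black. C1qa lay between 9.57 and 9.76 in EPO livers at 72 h and between 9.04 and 9.50 in vehicle livers at 72 h, and Tfpi was widest in the vehicle groups.

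No other comparison of a drug with vehicle passed for a member by limma. EPO at 24 h had 0 (0.0276% of all genes), with 3 at an unadjusted p under 0.05 (10.8%). Of these Serpind1 (heparin cofactor II) read 12.15, 12.15, 12.20, 12.16 and 12.24 in EPO livers, all above the vehicle readings of 12.05, 12.08, 11.92, 12.05 and 12.02, a difference of 0.16 with adjusted p = 0.442. EPO at 7 days had 0 (0.365% of all genes), with 0 at an unadjusted p under 0.05 (4.97%), and 95% intervals of the 38 differences lay between -0.51 and 0.49.

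Anakinra against vehicle passed for 0 members at 24 h (0% of all genes), 72 h (0%) and 7 days (0.0138%). At an unadjusted p under 0.05 there were 0 members at 24 h (4.25% of all genes), Tfpi (0.49) and C7 (0.37) at 72 h (10.7%), and Mbl2 (mannose-binding lectin C, 0.21), C8a (0.18) and C1qb (-0.30) at 7 days (7.62%). The vehicle group at 72 h held the narrow arrays 2 and 5, and its lowest Tfpi value was that of array 2. Without the narrow arrays 12 of the 38 anakinra differences at 72 h changed sign, the largest of them 0.134 in size. Averaged over the 3 times, the 95% intervals of the 38 anakinra differences lay between -0.23 and 0.51, and 0 passed (0.0551% of all genes), with 2 at an unadjusted p under 0.05 (21.4%). The same average for EPO passed for 0 members (2.41% of all genes), with 8 at an unadjusted p under 0.05 (20.5%), C1qb at 0.26 (adjusted p = 0.0662) and Cfp at 0.21 (adjusted p = 0.0652). Tests of whether a drug difference changed over time passed for 0 members with EPO (0.214% of all genes) and for 0 with anakinra (0%). At an unadjusted p under 0.05 these were 1 member (8.47% of all genes) and 0 members (2.77%).

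EPO set directly against anakinra passed for 0 members at 24 h (0.0207% of all genes), 72 h (1.94%) and 7 days (0.441%). At an unadjusted p under 0.05 there were 1 member at 24 h (1.69% of all genes), 3 at 72 h (9.95%) and 2 at 7 days (6.58%). The widest separation was that of C1qb at 7 days, which read 9.98, 9.94, 9.97, 9.91 and 9.90 in EPO livers, against 9.27, 9.53, 9.70, 9.35 and 9.25 in anakinra livers. The groups did not overlap (1.19% of all genes in that direction), and the difference of 0.52 had adjusted p = 0.0909. Cfp differed by 0.39 in that comparison (adjusted p = 0.139, and 0.018 without the narrow arrays). The mean Kupffer marker level was 8.55 to 9.14 in EPO livers at 7 days and 8.39 to 8.66 in anakinra livers at 7 days, and its part in the result was not tested.

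Among the 3 time courses, members passed in the EPO one. An F test of the 3 EPO times passed for 3 of 38 members, Proz, C1s and Cfp, against 2.41% of all genes, while the same test passed for 0 members in the anakinra groups (0.00689% of all genes), with 3 at an unadjusted p under 0.05 (6.56%). Whether the EPO and anakinra courses differ from each other was not tested.

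Proz encodes protein Z, a vitamin K-dependent cofactor that helps its serpin inhibit factor Xa. Its values in EPO livers were 12.14, 11.93, 12.01, 11.92 and 12.07 at 24 h, 11.89, 11.996, 11.77, 12.07 and 11.81 at 72 h and 11.62, 11.68, 11.27, 11.72 and 11.70 at 7 days. All 5 values at 7 days lay below all values at 24 h and 72 h, and the F test gave adjusted p = 0.00529, or 0.0608 without array 3 of day 7. Sham livers read 11.79, 11.73, 11.80, 11.91 and 11.42, a range that holds all EPO values at 7 days but array 3, a narrow array. In vehicle livers Proz averaged 11.88 ± 0.15 at 24 h, 11.76 ± 0.18 at 72 h and 11.75 ± 0.12 at 7 days (SD, n = 5 each).

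The Proz promoter is shown for its pair of HNF4 matches. Capitals mark a C/EBP match 137 bases before the start and HNF4 matches 39 and 22 bases before it (chr16:83165570-83165869, minus strand).
Proz: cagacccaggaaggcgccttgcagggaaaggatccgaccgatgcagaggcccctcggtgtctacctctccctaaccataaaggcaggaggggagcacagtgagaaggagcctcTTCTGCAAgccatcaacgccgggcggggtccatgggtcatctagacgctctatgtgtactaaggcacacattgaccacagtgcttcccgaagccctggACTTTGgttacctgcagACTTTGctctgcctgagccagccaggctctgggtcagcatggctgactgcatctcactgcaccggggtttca

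C1s differed over the EPO times with adjusted p = 0.032 and averaged 11.66 ± 0.07 at 24 h, 11.50 ± 0.23 at 72 h and 11.21 ± 0.12 at 7 days (SD, n = 5 each). Before adjustment the F test of C1s gave nearly the same p over the EPO times (0.000632) and the vehicle times (0.000658). Over the vehicle times its adjusted p was 0.195. A change of the C1s difference between EPO and vehicle over time was not shown (F test, adjusted p = 0.727). For Cfp adjusted p over the EPO times was 0.033. Its means in EPO livers were 9.88 ± 0.09 at 24 h, 10.31 ± 0.14 at 72 h and 10.23 ± 0.20 at 7 days, so the lowest stood at the first time. The C1s call was lost without array 2, 3, 4 or 5 of the 24 h group or 3, 4 or 5 of day 7 (adjusted p up to 0.142), and with cyclic loess (0.0729). The Cfp call was lost without array 2, 3, 4 or 5 of the 24 h group or 2 or 4 of the 72 h group (adjusted p up to 0.121), and with scaled arrays (0.0533).

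Many members are neighbours in the genome, and not all neighbours varied together. On GRCr8 no coding gene lies between C1qb, C1qc and C1qa or between C8b and C8a on chromosome 5, between C1r and C1s on chromosome 4, or between Klkb1 and F11 and between Proz, F10 and F7 on chromosome 16. Covariation was measured as the correlation of deviations from the group mean over the 50 arrays. For 17 pairs of related members it was tested by permuting arrays within groups, with p adjusted over the 17, and 7 of them passed. Of the 17, C1qa with Cfp and C1qc with Cfp were added after the r of C1qb with Cfp had been seen.

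C1qa and C1qc followed each other closely (r = 0.88, rho = 0.88, adjusted p = 8.5e-05 for r and 0.00017 for rho, both from 1e-05, the smallest p that the permutation test can give). C1qb did not follow C1qa (r = 0.17, rho = 0.18, adjusted p = 0.267 and 0.347 by permutation) and went with C1qc to a lesser degree (r = 0.45, rho = 0.41, adjusted p = 0.00473 and 0.0151). C1qb was closest to Cfp, a gene of another chromosome (r = 0.68, rho = 0.68, adjusted p = 8.5e-05 and 0.000255 by permutation). With the 2 arrays farthest from the median of the first gene left out, these r values were 0.86, 0.18, 0.40 and 0.68. Cfp went with C1qa (r = 0.42, rho = 0.44, adjusted p = 0.0219 and 0.0142 by permutation, 0.37 without the farthest arrays) and with C1qc (r = 0.55, rho = 0.57, adjusted p = 0.00306 and 0.00144, 0.52 without them).

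C1r and C1s, whose products form 1 complex, varied together (r = 0.62, rho = 0.64, adjusted p = 0.0021 and 0.000963 by permutation, r = 0.60 without the 2 farthest arrays). F7 and F10 did so too (r = 0.52, rho = 0.46, adjusted p = 0.00473 and 0.0133, r = 0.45 without them), while their neighbour Proz followed neither (r = 0.16 and 0.13). Such r values were not particular to neighbours or partners. Over all member pairs, r was over 0.5 in 22 of 171 coagulation pairs, 18 of 171 complement pairs and 30 of 361 pairs across the systems. F7 and F10 each had their highest r with C8b (0.71 and 0.58), and C1s with C4bpb (0.79), genes of other chromosomes. C8a and C8b, chains of the same protein, did not pass (r = 0.25, rho = 0.21, adjusted p = 0.267 and 0.347 by permutation), nor did F11 and Klkb1 (r = -0.13, rho = -0.11, adjusted p = 0.514 and 0.565).

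Further pairs were picked for their r after it was seen and are given as a description only. F13b and Pros1 had r = 0.86, F2 and F12 r = 0.86, C1s and C4bpb r = 0.79, C8a and C9 r = 0.72 and C8a and Masp1 r = 0.61. The deviations of C1qa, C1qb, C1qc and Cfp correlated with those of the mean Kupffer marker level at 0.55, 0.66, 0.66 and 0.75. Arrays share normalization and punch site in all of these values. The r of F13b with Pros1 was 0.80 without the 5 narrow arrays, in several of which both genes were low.

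**Figure D5:**
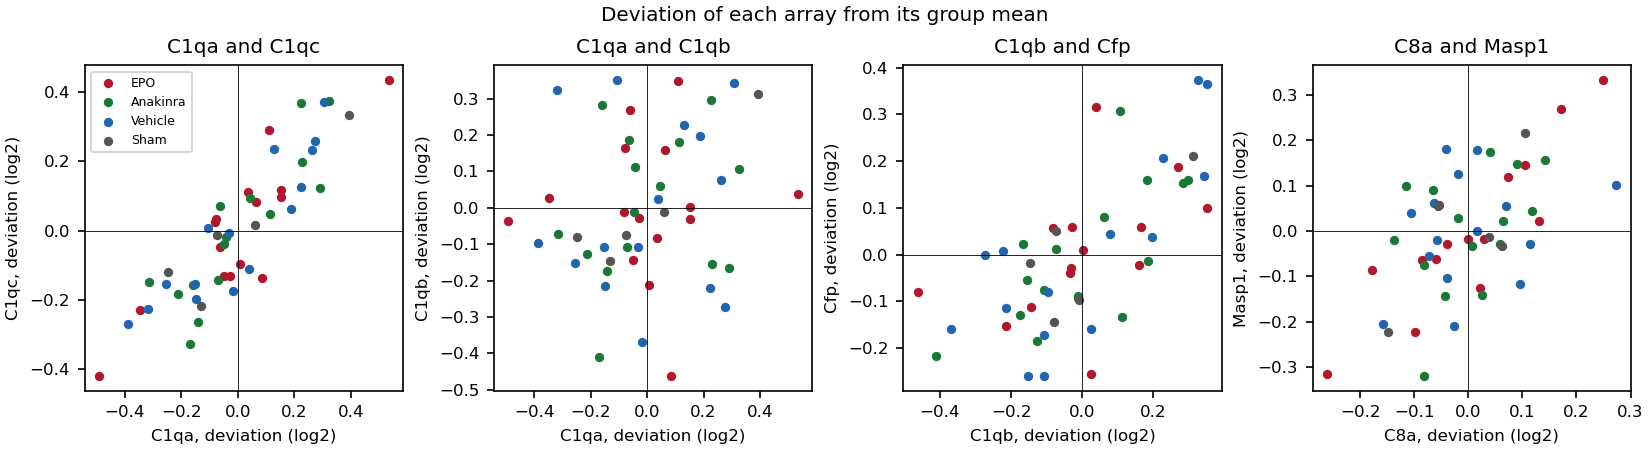
Deviation of each of the 50 arrays from its group mean (log2) for 4 pairs of complement genes, coloured by treatment. C1qa and C1qc lie along a line (r = 0.88), C1qa and C1qb do not (r = 0.17), and C1qb with Cfp (0.68) and C8a with Masp1 (0.61) lie between.

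Apart from F5 and Proz, the coagulation members passed in no comparison. Some lay near sham in every group, while others, such as F7 (0.36 in EPO livers at 24 h), did not. Over the 9 injured groups the difference from sham lay between -0.05 and 0.10 for F2, between 0.02 and 0.07 for Plg, between -0.09 and 0.08 for Vtn (vitronectin) and between -0.07 and 0.07 for Hrg (histidine-rich glycoprotein). Cpb2, which protects clots from fibrinolysis, and Serpinf2, the plasmin inhibitor, were highest in EPO livers at 24 h (0.09 and 0.16) and lowest in anakinra livers at 7 days (-0.13 and -0.14). F13b and Pros1 (protein S) were lowest in EPO livers at 7 days, with -0.34 and -0.26. F11 and F12, the contact pathway zymogens, ranged from -0.08 to 0.18 and from -0.04 to 0.10, and Proc (protein C) from -0.18 to 0.08. The lowest values of F2, F11 and F12 were those of EPO livers at 7 days, which were above sham with cyclic loess. Tests of these members used the same 5 sham arrays throughout.

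Complement members without a call had ranges of their own. Masp2 lay between -0.10 and 0.04 of sham, Cfd (factor D) between -0.06 and 0.09 and C8g between -0.07 and -0.005. Mbl1 and Mbl2, the mannose-binding lectins, reached 0.23 in EPO livers at 24 h and 0.21 in anakinra livers at 7 days. Cfi, which degrades C3b and C4b, reached 0.28 in EPO livers at 72 h. C6 was highest in EPO livers at 24 h (0.25) and lowest in anakinra livers at 24 h (-0.20), the 1 member with an unadjusted p under 0.05 between those groups.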

How the data were processed

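Liver RNA of 50 rats was measured on 1 array each. The deposited values are log2 probe intensities made by the authors with RMA (oligo), per the submitters' processing notes, versions not given in the sources used here. RMA corrects background, normalises arrays and summarises the probes of a set. The deposited arrays still differ in median and spread. Of 29214 probes, 15310 had 1 gene symbol in GEO's platform annotation, 323 several and 13581 none. For each of 14506 genes 1 probe was used, that of the highest mean.

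Groups were compared with limma 3.58.1 in R 4.3.3 (lmFit, eBayes) on all 50 arrays, with 1 mean per group, 40 residual degrees of freedom, no covariate and Benjamini-Hochberg adjustment over the 14506 genes, in 18 comparisons of 2 groups, 3 of means over the 3 times and 6 F tests. The scripts were tested on simulated data. Members, gene lists and tests were chosen with earlier results of these data known. Every member may be named. Genes of the other lists are named, up to 4 a list by smallest p, where they passed in a comparison in which a member passed. Alternatives were array weights, a trended robust eBayes, only the groups compared, arrays scaled to a common spread, cyclic loess, the mean of all probes of a gene, a filter at a mean log2 value of 5, a replicate block, the 5 narrow arrays left out and each array left out. The number of arrays limits the precision. Levels of the members F9 and C5 were not analysed here.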

Additional observations from a re-analysis of the deposited data

Results flagged for a closer look

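In 380 sets of 5 arrays (38 members in 10 groups), 26 held 1 array far from the other 4 by Dixon's criterion, a gap over range above 0.71, where chance gives about 19. Array 1 of the EPO group at 24 h stood apart for 5 members. It was low for F13b (11.06, others 11.69 to 11.76), Tfpi (6.90, others 7.48 to 7.60), Cpb2 (12.48, others 12.60 to 12.64) and C4bpb (11.57, others 12.01 to 12.09), and high for F12 (12.03, others 11.69 to 11.77). Array 1 of the anakinra group at 24 h was high for 4 members, F2 (12.80, others 12.48 to 12.50), Proc (12.30, others 11.94 to 12.02), C1qa (9.48, others 9.01 to 9.10) and Cfp (10.09, others 9.66 to 9.77).

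In the EPO group at 7 days, array 3, a narrow array, was low for F5 (10.58), Proz (11.27) and C6 (10.39), and array 1 was high for Serpinc1 (13.10) and Plg (13.26). The narrow vehicle arrays gave low values for C1s (11.36) and Cfi (12.09) in array 3 at 24 h, Mbl2 (12.39) in array 2 and F7 (9.76) in array 5 at 72 h, and C9 (12.64) and C4bpb (11.06) in array 3 at 7 days.

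Single values stood apart in further groups. Vehicle array 4 at 72 h was high for Hrg (12.99) and C1qa (9.50), which lay below all EPO arrays of that time all the same. EPO array 4 at 72 h was low for Klkb1 (12.08) and EPO array 2 at 72 h high for C8g (13.15). C8a was low in anakinra array 5 at 72 h (12.50), and C9 was high in anakinra array 2 at 7 days (13.12).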

How the results depend on the processing

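Of 27 counts of members that passed, 14 stayed within 1.5 times under every alternative, and of 21 named calls 6 held under every alternative and 7 whichever array was left out. No call changed sign. Small differences did: F11 in EPO livers at 7 days was -0.08 from sham and turned positive with cyclic loess, as did F2 (-0.05) and F12 (-0.04), and up to 15 of the 38 members changed sign in a comparison with cyclic loess or without the narrow arrays. The cause of the changes was not tested. Array weights gave 5 members in place of 2 for vehicle against sham at 24 h, 11 in place of 2 for EPO and 5 in place of 1 for anakinra at 24 h, 5 in place of 3 for EPO against sham at 72 h, 3 in place of 0 for anakinra against sham at 72 h, and 1 in place of 0 for EPO against anakinra at 72 h, EPO against sham at 7 days and the mean of EPO minus vehicle. They gave 16 in place of 8 in the F test of all groups and 8 in place of 3 over the EPO times. A model of only the groups compared gave 0 for vehicle and for anakinra against sham at 24 h. It also gave 0 for EPO at 72 h against sham and against vehicle, and 1 for EPO against anakinra at 7 days. Scaling to a common spread gave 1 for vehicle against sham at 24 h, 0 for anakinra against sham at 7 days and 5 over all groups. Cyclic loess gave 4 for vehicle against sham at 24 h, 5 for EPO against sham at 72 h and 1 at 7 days. Without the narrow arrays there were 5 for EPO against sham at 72 h, 1 for EPO against anakinra at 7 days and 1 for the mean of EPO minus vehicle. The filter on low values gave 2 for EPO against vehicle at 72 h.

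Leaving out 1 array at a time gave 1 to 3 members for vehicle, 0 to 3 for EPO and 0 to 2 for anakinra against sham at 24 h. It gave 2 to 4 for EPO against sham and 0 to 5 for EPO against vehicle at 72 h, 0 to 1 for EPO and for anakinra against sham at 7 days, 0 to 3 for the mean of EPO minus vehicle, 5 to 8 over all groups and 1 to 3 over the EPO times. Taken over all groups, arrays with the same replicate number did not deviate together (median r = -0.007, against -0.011 for different numbers). In 0 of 18 comparisons was every same-number pair over 0.1. Yet 4 pairs were over 0.1 for EPO against vehicle at 7 days (r up to 0.617). The same held for anakinra against vehicle at 24 h (r up to 0.368). Whether samples of 1 number share more than the number was not tested. With the number as a replicate block, 0 members passed for anakinra against sham at 24 h (F5, adjusted p = 0.0515) and at 7 days (C8a, adjusted p = 0.053), and Cfp in EPO against vehicle livers at 72 h had adjusted p = 0.0533.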
